A study of Arabidopsis thaliana with 6 samples.

Results

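Serine/arginine-rich (SR) proteins are splicing factors that carry an RNA-recognition motif and a domain rich in arginine and serine. They bind pre-mRNA and help the U1 particle and the U2AF dimer find the ends of introns, so their amounts and ratios are known to affect which splice sites are used. In plants the family has grown into several subfamilies, and the pre-mRNAs of SR genes are themselves alternatively spliced, with some of the products removed by nonsense-mediated decay. The 10 genes described here were chosen by locus as members of the family: SR34, SR30 and SR34a of the SR subfamily, RSZ21 and RS2Z33 with zinc knuckles, the SC35-like SCL33, RS31, RS40 and RS41 of the plant-specific RS subfamily, and the SR-like protein SR45. Of the 10, 9 were analysed among 22426 loci, and SCL33 (AT1G55310) was not analysed here. The set and the other gene lists were drawn up with earlier results of these data known.

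The samples were whole Arabidopsis thaliana seedlings aged 2 weeks, grown in a greenhouse (22 °C, long days of 16 hours light and 8 hours dark), 3 libraries from wild type and 3 from an NCBP mutant. NCBP (AT5G18110) encodes an eIF4E-type protein that binds the mRNA cap, and the design sets mutant seedlings against the wild type. Neither the allele of the mutant, nor the ecotype, nor the hour of harvest is stated in the labels. The labels also do not say whether replicates were separate sowings, so the p-values reflect spread among libraries that may be technical in origin. Values are FPKM, fragments scaled to transcript length and library total, as deposited by the authors, and library totals are not given, so the depth is unknown.

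The targeted transcript was lower in every library labelled mutant. NCBP read 97.4, 100.4 and 97.9 FPKM across the wild-type replicates and 57.9, 59.2 and 55.8 FPKM across the mutant replicates. The mutant mean is 58.5% of the wild-type level (log2 fold change -0.76, SE 0.05, limma adjusted p 0.000146). Reads assigned to NCBP were thus still present in the mutant libraries, and whether they come from an intact transcript was not tested. In the RefSeq annotation of TAIR10.1, 12.7% of the exonic length of NCBP is shared with AT5G18100 on the opposite strand. CBP20 and ABH1, which together bind mRNA caps in the nucleus, missed the threshold, at 32.1 ± 2.06 and 28.8 ± 0.652 FPKM (limma adjusted p 0.128) and at 13.2 ± 0.466 and 14.1 ± 0.920 FPKM (adjusted p 0.459) in wild type and mutant. Leaf markers were abundant in all 6 libraries. Flower markers were low and seed markers near 0, with summed levels of at most 5.35 FPKM over 5 genes and 0.587 FPKM over 2 genes. The column sums lay between 970383 and 1040255 FPKM. Of 18064 genes with a mean of at least 1 FPKM, 2657 (14.7%) passed an adjusted p of 0.05 in limma, 1133 higher (6.27%) and 1524 lower (8.44%) in the mutant. Of these 2657 calls 42.6% were higher. After rescaling to the same column sum 2386 genes were called, 2180 of them shared with the first fit, and 53.9% of the 2386 were higher.

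Fitted differences of the SR transcripts between mutant and wild type were small, between -0.22 and 0.21 on the log2 scale. SR30, a relative of the human factor SRSF1, alone among the 9 measured SR genes passed the test, and it fell to 85.6% of its wild-type level. No measured SR gene rose past the threshold. RS31 came closest, at 116% of wild type and an adjusted p of 0.0559. All 9 genes passed the filter on low values, and 1 (11.1%) was called, against 14.7% of all genes tested, so the share called was close to the background. The median log2 fold change of the 9 genes was 0.06 and the median size regardless of sign was 0.15, beside -0.0034 and 0.13 over all genes tested. Summed over the 9 genes the level was 560 ± 9.54 FPKM in wild type (SD, n = 3) and 554 ± 22.1 FPKM among mutant libraries (n = 3). In a bulk sample of whole seedlings, fewer cells of a type and less RNA per cell cannot be told apart.

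**Figure D1:**
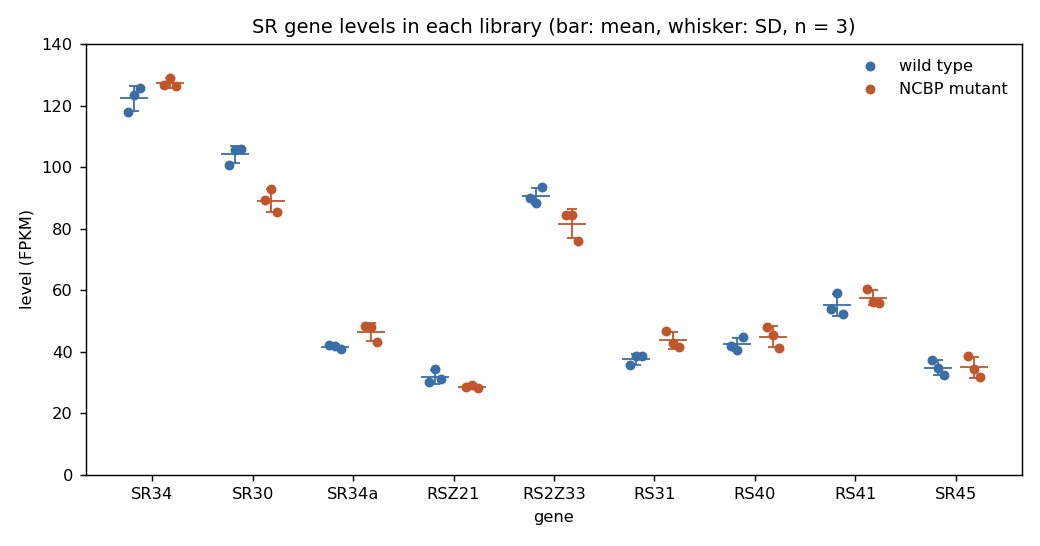
FPKM of the 9 measured SR genes in each library, with points for the 3 wild-type and 3 mutant libraries, bars for means and whiskers for the SD. SR34 is highest, between 118 and 129 FPKM, and the mutant points of SR30, RS2Z33 and RSZ21 all lie below the wild-type points.

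The SR genes were expressed at moderate to high levels. Their mean FPKM placed them between the 74.9th percentile (RSZ21) and the 93.8th percentile (SR34) of the genes tested. In wild type the order by level per length was SR34, SR30, RS2Z33, RS41, RS40, SR34a, RS31, SR45 and RSZ21, from 122 ± 4.05 down to 31.9 ± 2.27 FPKM. SR34, SR30, RS2Z33, RS41 and SR34a were each separated from the next gene in that order without overlap of the libraries, while RS40 overlapped SR34a, RS31 overlapped SR45, and SR45 overlapped RSZ21. In the mutant the order was the same except that SR34a (46.5 FPKM) stood before RS40 (44.9 FPKM). There the libraries of SR34a and RS40 overlapped, as did those of RS40 and RS31, and the other neighbours did not. SR34, SR30 and RS2Z33 made up 21.8%, 18.6% and 16.2% of the summed level of the 9 genes in wild type and 23.0%, 16.1% and 14.7% in the mutant.

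Within the SR subfamily, whose proteins resemble human SRSF1, the fitted differences had different signs. SR30 (AT1G09140), whose overexpression is known to alter the splicing of its own and of SR34 transcripts, read 100.8, 105.6 and 105.9 FPKM across the wild-type replicates and 89.2, 92.8 and 85.3 FPKM across the mutant replicates. Every mutant library lay below every wild-type library, and the gap between the groups was wider than the range within either. The log2 fold change was -0.22 (SE 0.05, 95% interval -0.34 to -0.11), with a limma adjusted p of 0.0230. The call was close to the threshold: the adjusted p ranged from 0.0203 to 0.0707 over 17 alternatives and stayed under 0.05 in 9 of them. It was lost without wild-type replicate 2 (0.0584) or 3 (0.0644) and without mutant replicate 1 (0.0692) or 3 (0.0707), after rescaling to the same sum (0.0630), with quantile normalization (0.0586), without the mean trend (0.0613) and with the replicate number as a block (0.0503). The log2 fold change itself stayed between -0.25 and -0.18.

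SR34 (AT1G02840), the most abundant of the set and a close relative of SR30, read 117.8, 123.4 and 125.7 FPKM across the wild-type replicates and 126.7, 129.0 and 126.2 FPKM across the mutant replicates. The mutant libraries were all higher, by a margin smaller than the spread of the wild type. The log2 fold change was 0.06 (95% interval -0.05 to 0.16, limma adjusted p 0.447). SR34a (AT3G49430) read 42.2, 41.8 and 40.7 FPKM across the wild-type replicates and 48.2, 48.0 and 43.2 FPKM across the mutant replicates. The groups did not overlap, but mutant replicate 3 lay nearer to the wild type than to the other mutant libraries, and the log2 fold change of 0.16 (95% interval 0.02 to 0.29) had an adjusted p of 0.110 in limma.

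The members with zinc knuckles, small metal-binding motifs that follow the RNA-recognition motif, were both lower on average. RSZ21 (AT1G23860), a relative of human SRSF7 known to bind the U1-70K protein, read 30.1, 34.5 and 31.2 FPKM across the wild-type replicates and 28.6, 29.3 and 28.1 FPKM across the mutant replicates. RS2Z33 (AT2G37340), of a plant-specific subfamily with an additional knuckle and known to affect the splicing of its own transcript, read 89.9, 88.4 and 93.4 FPKM across the wild-type replicates and 84.5, 84.4 and 76.0 FPKM across the mutant replicates. For each gene the groups did not overlap, and neither passed the test. The log2 fold changes were -0.15 for RSZ21 (95% interval -0.29 to -0.01, limma adjusted p 0.148) and -0.15 for RS2Z33 (95% interval -0.28 to -0.02, adjusted p 0.114). In the RefSeq annotation of TAIR10.1, 25.9% of the exonic length of RS2Z33 is shared with AT2G08865 on the opposite strand, and the strand of the library protocol is not stated, so reads from that stretch cannot be assigned to either.

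In the RS subfamily, found in plants, the means of RS31, RS40 and RS41 were higher in the mutant, with no call. Only RS31 had groups that did not overlap. RS31a, the relative of RS31, showed almost no difference, and its libraries overlapped between the groups. Its log2 fold change was 0.01 (95% interval -0.24 to 0.26, limma adjusted p 0.968). RS31 (AT3G61860), whose alternative splicing is known to respond to light through a chloroplast signal, read 35.6, 38.7 and 38.6 FPKM across the wild-type replicates and 46.9, 43.0 and 41.5 FPKM across the mutant replicates. All mutant libraries lay above all wild-type libraries. Its log2 fold change of 0.21 (SE 0.06, 95% interval 0.07 to 0.36) missed the threshold with a limma adjusted p of 0.0559. It passed in 3 of 17 alternatives, with a mean FPKM filter of 5 (adjusted p 0.0466), median-ratio scaling (0.0480) and quantile normalization (0.0394), and the range over the alternatives was 0.0394 to 0.167.

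RS40 (AT4G25500) and RS41 (AT5G52040), close copies that are known to take part in microRNA processing as well as splicing, overlapped between the groups. RS40 read 40.4 to 44.8 FPKM across the wild-type replicates and 41.2 to 47.9 FPKM across the mutant replicates, and RS41 read 52.2 to 59.2 and 55.9 to 60.4 FPKM. Their log2 fold changes were 0.08 (95% interval -0.08 to 0.24, limma adjusted p 0.466) and 0.06 (95% interval -0.08 to 0.20, adjusted p 0.548). When each library was left out they ranged from 0.03 to 0.14 and from 0.02 to 0.11. The treatment of reads that match RS40 and RS41 equally well is not stated by the submitters. In TAIR10.1, 20.9% of the exonic length of RS41 is shared with AT5G52045 on the opposite strand.

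SR45 (AT1G16610), an SR-like protein related to human RNPS1 that binds U1-70K and is known from late-flowering, sugar-sensitive mutants, was the member nearest to no difference. It read 32.3 to 37.2 FPKM across the wild-type replicates and 31.7 to 38.6 FPKM across the mutant replicates. The log2 fold change was 0.01, with a 95% interval of -0.18 to 0.19 which spans -11.8% to 14.2%, and the limma p adjusted over all genes was 0.98. Its sign turned without wild-type replicate 3 or without mutant replicate 1, over a range of -0.07 to 0.07 when each library was left out.

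Across the set, 6 of 9 SR genes had groups that did not overlap, 3 with all mutant libraries higher (SR34, SR34a, RS31) and 3 with all lower (SR30, RSZ21, RS2Z33). Such separation was seen in 35.5% of all genes tested, 16.4% higher and 19.1% lower. At an unadjusted p of 0.05, 5 of the 9 passed in limma, beside 5574 of the 18064 genes tested. Both counts are larger shares of the 9 than of all genes, and with so few genes this difference was not tested. Of the 9 genes, SR45 was the only one whose fitted direction changed under any of the 17 alternatives, and its range and those of RS40 and RS41 are given with each gene. When each library was left out, the log2 fold change lay between 0.03 and 0.08 for SR34, 0.13 and 0.21 for SR34a, -0.19 and -0.09 for RSZ21, -0.17 and -0.10 for RS2Z33, and 0.16 and 0.25 for RS31. Each of the 9 kept its direction under the scaling alternatives, none of which moved the median of all genes by more than 0.1 on the log2 scale.

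**Figure D2:**
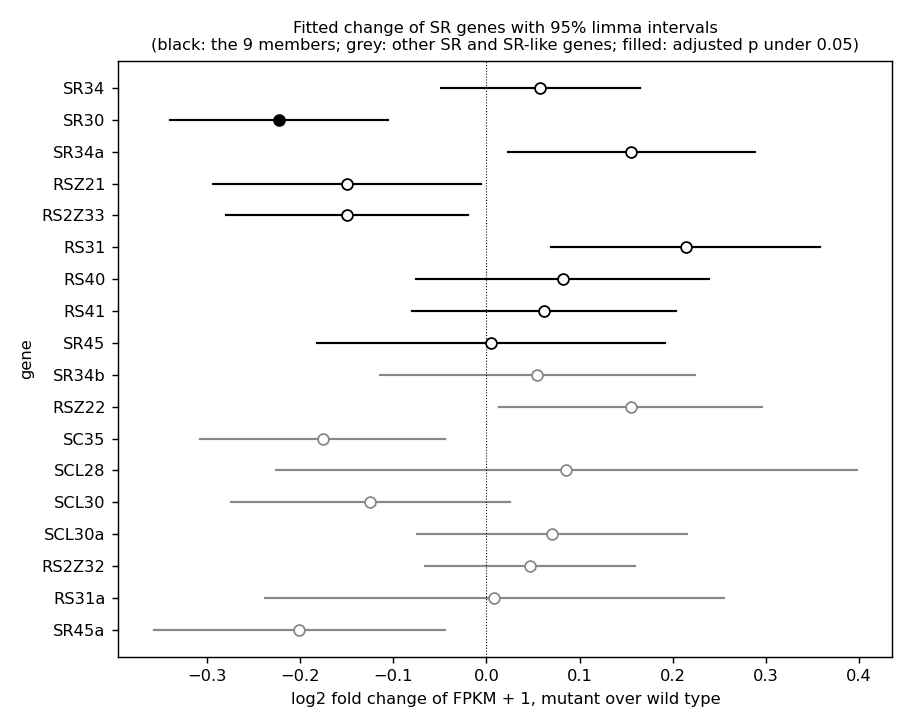
Log2 fold change of FPKM + 1, mutant over wild type, with 95% limma intervals for the 9 members (black) and 9 other SR and SR-like genes (grey), filled where the adjusted p was under 0.05. SR30 is the only filled point, at -0.22, and all fitted changes lie between -0.22 and 0.21.

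Among 10 further SR and SR-like genes, 9 were analysed and 0 passed the test in limma, with 3 at an unadjusted p under 0.05. SC35 (AT5G64200), the relative of human SRSF2, had the smallest p. It read 34.5, 35.4 and 36.2 FPKM across the wild-type replicates and 33.2, 30.5 and 30.1 FPKM across the mutant replicates (log2 fold change -0.18, adjusted p 0.0773). SR45a, a stress-responsive SR-like gene, went from 37.5 ± 3.14 to 32.5 ± 1.06 FPKM (adjusted p 0.0851). RSZ22, the close relative of RSZ21, went from 53.9 ± 2.66 to 60.1 ± 3.58 FPKM (adjusted p 0.130). For each of these genes the groups did not overlap, as for 35.5% of all genes tested, and the other 6 overlapped. Of all genes tested 14.7% passed, and 5574 of 18064 had an unadjusted p under 0.05, so these counts were not above the background shares. The median log2 fold change of the 9 was 0.05. Without wild-type replicate 1, SR45a passed (adjusted p 0.0489), over a range of 0.0489 to 0.223.

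A ratio of relatives within a library does not depend on how the library was scaled, so 8 of the 9 members, all but SR45, entered 6 pairs of relatives. The ratio of SR34 to SR30 was 1.17, 1.17 and 1.19 in the wild-type libraries and 1.42, 1.39 and 1.48 in the mutant libraries. The lowest mutant ratio was well above the highest wild-type ratio, and the means were 1.17 ± 0.0103 and 1.43 ± 0.0445 (SD, n = 3 each). The difference in log2 ratio was 0.28 and lay between 0.26 and 0.30 when each library was left out in turn.

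The ratio of RSZ21 to RSZ22 was 0.540, 0.626 and 0.613 in wild type and 0.479, 0.458 and 0.494 in the mutant, a log2 difference of -0.31 (-0.38 to -0.27 when each library was left out). The ratio of RS2Z33 to its relative RS2Z32 was 1.23, 1.25 and 1.29 in wild type and 1.125, 1.096 and 1.067 in the mutant, a log2 difference of -0.20 (-0.22 to -0.18). In both pairs all mutant libraries lay below all wild-type libraries, and RS2Z32 itself overlapped between the groups, at 70.9 to 73.0 and 71.2 to 77.0 FPKM.

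The other 3 pairs overlapped: SR34 to SR34a, RS40 to RS41, and RS31 to its weakly expressed relative RS31a had log2 differences of -0.10, 0.02 and 0.21. When each library was left out they ranged from -0.15 to -0.07, from -0.06 to 0.10 with a change of sign, and from 0.05 to 0.32, where the lowest was without mutant replicate 1. In TAIR10.1, 27.2% of the exonic length of RS31a is shared with AT2G09740 on the opposite strand. Exact 2-sided permutation tests gave p values of 0.1 for SR34 to SR30, RSZ21 to RSZ22 and RS2Z33 to RS2Z32, the smallest that 3 against 3 libraries allow, and 0.2 after Benjamini-Hochberg adjustment over the 6 pairs. With that smallest value, no ratio could pass 0.05 in the exact test, and no other test of the ratios was made. How often the ratios of other gene pairs separate between the groups was not determined. As single genes, SR34, SR30, RSZ21, RSZ22 and RS2Z33 did not overlap between the groups, which was so for 35.5% of all genes tested. For RS40 to RS41 the exact p was 0.9.

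**Figure D3:**
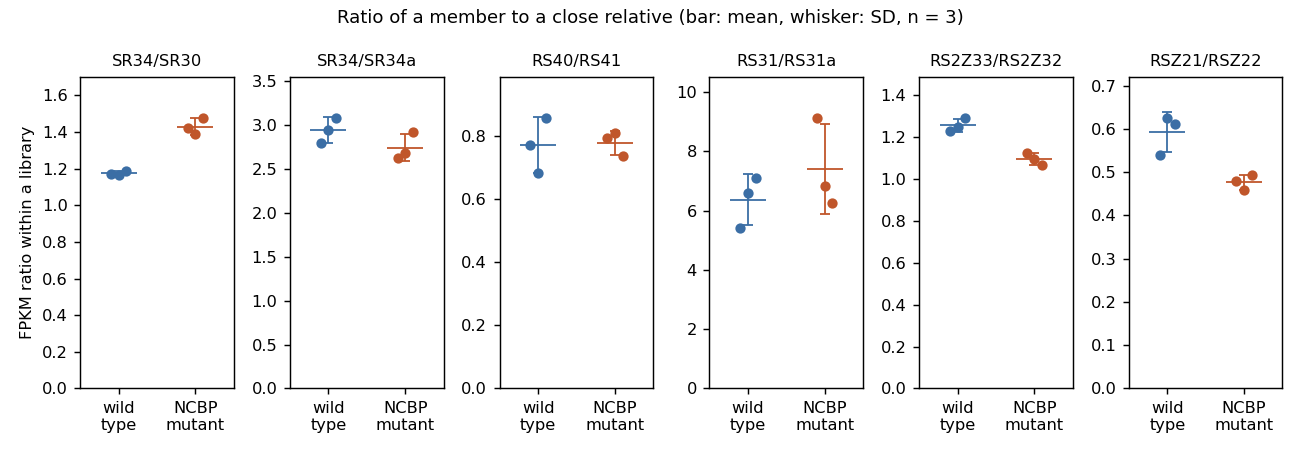
Ratio of the FPKM of a member to that of a close relative in each library, with points for libraries, bars for means and whiskers for the SD (n = 3), each panel on its own linear axis from 0. The SR34 to SR30 ratio is higher in every mutant library (1.39 to 1.48) than in any wild-type library (1.17 to 1.19), and the RS2Z33 and RSZ21 ratios are lower.

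The measured SR genes are annotated with many transcript forms. In the RefSeq annotation of TAIR10.1 the 9 genes had a median of 6 annotated mRNAs, beside a median of 1 over 17813 tested genes found there, and 66.7% of them had at least 5, beside 5.92%. SR30 had 3, RS31 had 1 and RS40 had 8. The values are 1 per gene, and how the authors combined the forms is not stated, so shifts between forms were not analysed here.

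Proteins that act on or with SR proteins were also compared. Of 9 kinases and import factors, among them the SRPK and LAMMER-type kinases that phosphorylate the arginine/serine-rich domain and the import receptor MOS14, 0 passed in limma and 0 had an unadjusted p under 0.05. The smallest p was that of AFC3 (AT4G32660), a LAMMER-type kinase, which went from 19.5 ± 0.140 to 18.1 ± 1.62 FPKM (adjusted p 0.350). The median log2 fold change of the 9 was 0.06. Over all genes tested 14.7% passed, and 5574 of 18064 had an unadjusted p under 0.05.

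Of 14 genes for recognition of splice sites, 1 fell, 0 rose and 13 did not pass (7.14% called, beside 14.7% of all genes tested). The gene that fell was U2AF35A (AT1G27650), the small subunit of the factor that binds the 3′ end of introns and a known partner of SR45, which read 43.7, 47.8 and 48.5 FPKM across the wild-type replicates and 39.7, 39.1 and 40.7 FPKM across the mutant replicates. The groups did not overlap, and the log2 fold change was -0.22 (limma adjusted p 0.0329, range 0.0268 to 0.111 over the alternatives, under 0.05 in 8 of 17). The call was lost when wild-type replicate 2 or 3 or any mutant replicate was left out. U1-70K, which SR proteins are known to contact, overlapped between the groups, at 51.3 ± 1.76 and 54.4 ± 5.10 FPKM.

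Of 14 genes of the core spliceosome and its assembly, 2 fell, 0 rose and 12 did not pass. The share called, 14.3%, was close to the 14.7% of all genes tested. PRL1 (AT4G15900), a subunit of the complex around the Prp19 ubiquitin ligase, went from 43.2 ± 0.339 to 37.4 ± 1.24 FPKM (log2 fold change -0.20, limma adjusted p 0.0292). PRP8A (AT1G80070, annotated as SUS2), the scaffold at the catalytic centre, went from 32.9 ± 1.14 to 27.9 ± 1.45 FPKM (log2 fold change -0.23, adjusted p 0.0323). Both calls were near the threshold, under 0.05 in 7 and 9 of the 17 alternatives with ranges of 0.0251 to 0.0855 and 0.0255 to 0.107. The call of PRL1 was lost whichever library was left out, and that of PRP8A without wild-type replicate 1 or 3 or mutant replicate 2 or 3.

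Of 11 hnRNP-like genes, RNA-binding proteins of which some are known to act against SR proteins at splice sites, 1 rose, 2 fell and 8 did not pass. The share called was 27.3%, beside 14.7% of all genes tested, and with so few genes this difference was not tested. GRP7 (AT2G21660), a clock-controlled glycine-rich RNA-binding protein, rose from 502.8, 583.7 and 632.0 FPKM to 826.5, 713.0 and 773.0 FPKM (limma adjusted p 0.0168). Leaving out mutant replicate 1 ended its call (adjusted p 0.0618), and the alternatives ranged from 0.0115 to 0.0618. RBP45B (AT1G11650) fell from 164 ± 1.87 to 142 ± 4.06 FPKM (adjusted p 0.0222), and UBP1C (AT3G14100), an oligouridylate-binding protein, fell from 54.0 ± 2.28 to 46.3 ± 1.01 FPKM (adjusted p 0.0275). Their calls held in 11 and 8 of the 17 alternatives, with ranges of 0.0198 to 0.0819 and 0.0235 to 0.101. That of RBP45B was lost without wild-type replicate 2 or 3 or mutant replicate 1 or 2, and that of UBP1C without wild-type replicate 2 or 3 or any mutant replicate. Rescaling to the same sum and quantile normalization also ended the calls of UBP1C, U2AF35A, PRL1 and PRP8A, but not those of GRP7 and RBP45B. The calls of these 4 genes and of RBP45B were also lost without the mean trend (adjusted p 0.0629 to 0.0695) and with the replicate number as a block (0.0533 to 0.0634). The polypyrimidine tract-binding genes PTB1, PTB2 and PTB3 did not pass.

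UPF1, UPF2 and UPF3, the core factors of nonsense-mediated decay, did not pass in limma. Their log2 fold changes were -0.01, -0.05 and -0.02, and the libraries of each overlapped between the groups. No count is given for the list of junction complex, decay and export genes.

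**Figure D4:**
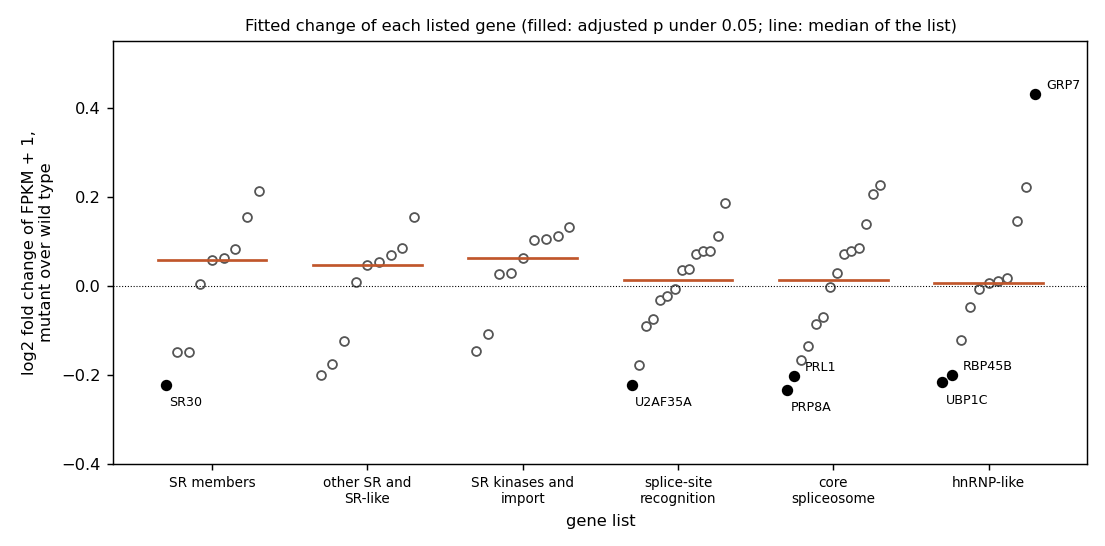
Log2 fold change of FPKM + 1, mutant over wild type, for each tested gene of the SR set and of 5 related lists, with filled points for an adjusted p under 0.05 and a line at each list's median. Each list has 0 to 3 filled points, and the medians lie between 0.01 and 0.06.

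Of 5 markers of dividing cells 1 passed, KNOLLE (AT1G08560), a syntaxin of the forming cell plate, which rose from 21.0 ± 1.51 to 26.0 ± 0.993 FPKM (limma adjusted p 0.0214). The summed level of the 5 was 57.4 to 88.9 FPKM across the wild-type replicates and 81.3 to 109 FPKM across the mutant replicates. CYCB1;1, a mitotic cyclin, ranged from 5.32 to 39.1 FPKM in wild type and from 22.4 to 50.5 FPKM in the mutant, and overlapped between the groups. The summed level of 6 root markers was 110.1 to 137 and 118 to 128 FPKM, where NRT2.1, a nitrate transporter gene, was the 1 that passed, from 0.932 ± 0.410 to 2.42 ± 0.746 FPKM (adjusted p 0.0333). The 5 leaf markers summed to 61873 to 74592 FPKM across the wild-type replicates and 68610 to 72783 FPKM across the mutant replicates, and 0 passed. The smallest p among them was that of the antenna protein gene LHCB1.1 (limma adjusted p 0.133), and among the flower markers that of SEP3, a floral homeotic gene, at 1.92 ± 0.277 and 2.91 ± 0.502 FPKM (adjusted p 0.0712). The other flower marker tested, PI, lay the opposite way, at 2.56 ± 1.02 and 1.27 ± 0.363 FPKM with overlapping groups (adjusted p 0.106). The KNOLLE call was lost without wild-type replicate 1 or 2 or mutant replicate 1 or 2, with adjusted p values of 0.0154 to 0.0755 over the alternatives, and that of NRT2.1 without wild-type replicate 1 or 2 or mutant replicate 1 or 2, with no filter (0.0507), with quantile normalization (0.0514) and with the replicate block (0.0792), so that it held in 9 of 16 alternatives with 0.0255 to 0.111. The calls were 20% of the dividing-cell and 16.7% of the root markers, beside 14.7% of all genes tested. The part of these markers in the SR values was not tested.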

How the data were processed

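The authors deposited FPKM for 22426 loci in 1 table with 1 column per library, for 3 wild-type and 3 NCBP mutant libraries. Per the submitters' processing notes HISAT2 was used (no version stated). The FPKM program, build and annotation were not stated, so no coordinates are printed. The FPKM depend on gene length and library total, and 1127 to 1345 loci per library were listed at 0.

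Columns were matched to samples by label. Genes with a mean of at least 1 FPKM were tested as log2(FPKM + 1) in limma 3.58.1 (R 4.3.3) with a mean trend, 2-sided, with Benjamini-Hochberg adjustment over 18064 genes and a threshold of 0.05. The step was tested on simulated data, with planted changes larger than those fitted for the SR genes. It does not show how often changes as small as those of the SR genes are found. Ratios were compared by exact permutation. Alternatives were other pseudocounts, filters, scalings and variance models, library weights, a replicate block and leaving out each library. Gene names, mRNA counts and overlaps came from RefSeq TAIR10.1, which matched 22053 of 22107 nuclear loci. The members and lists, 106 loci of which 103 were analysed, were chosen with earlier results of these data known. A result of 1 listed gene is not reported here, and the count of its list is left out. Named genes were the members, NCBP, CBP20, ABH1, and of each other list up to 3 past the threshold with the smallest p, or the smallest p where none passed. SR45a, U1-70K, PTB and UPF genes, MOS14, CYCB1;1 and PI were named beyond that rule, after their values were seen. RSZ22, RS2Z32 and RS31a were partners in the planned ratio pairs, and their values as single genes were also added after being seen. SCL33 lacks a value here, so 6 of 7 planned ratio pairs were made. No libraries held identical columns.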

Additional observations from a re-analysis of the deposited data

How the results depend on the processing

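The count of called genes fell when libraries were left out, to 1321 to 1997 in all, 579 to 987 higher and 720 to 1107 lower, with 1680 without wild-type replicate 3 and 1321 and 1391 without mutant replicates 1 and 2. Of the SR members, 0 to 1 were called when each library was left out (0 higher throughout, 0 to 1 lower), and 0 to 1 of the other SR genes. With a filter at 5 FPKM or with median-ratio scaling 2 members were called, of which 1 (RS31) was higher. With quantile normalization 1 was higher (RS31) and 0 lower. With rescaling to the same sum, no mean trend or the replicate block, 0 members were called and 0 were lower. The causes were not tested. The log2 fold change of SR45 turned to -0.04 without wild-type replicate 3 and to -0.07 without mutant replicate 1, and ranged from -0.0675 to 0.0715 when each library was left out. Under the replicate block 1991 genes were called, with an adjusted p for SR30 of 0.0503. The replicate numbers gave no sign of pairing. Deviations of same-numbered libraries from their group means correlated at 0.0705, -0.0716 and -0.0596, and not every library correlated best with its own number. With 3 libraries per group, a weak pairing could be missed. Of the 2657 calls, 1870 were shared with the fit under the replicate block. With a pseudocount of 1, no ratio of relatives moved by more than its spread between replicates. Leaving out 1 of 3 libraries cannot move a ratio that far, so those runs do not test its stability in this sense. The difference for RS40 to RS41 changed sign in some of them. The low number of libraries and the unknown depth limit what small changes of this kind can show.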
